A study of Mus musculus with 8 samples.

Results

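Blood vessels of quadriceps muscle were examined through 10 genes of vascular endothelial growth factor (VEGF), apelin and angiopoietin signalling, chosen by symbol from the 53819 gene symbols of the count table: Kdr, Flt1, Vegfa, Vegfb, Apln, Aplnr, Tek, Angpt1, Emcn and Cdh5. All 10 were present and all passed the filter on low counts. The series compared 4 tumor-bearing with 4 control C57BL/6J mice, wild type and 8 weeks old at the start. Tumor mice had received 500000 cells of the head and neck squamous carcinoma line B0092 under the skin of the nape, and control mice PBS alone. Quadriceps was taken on day 36, a time the series sets by a weight loss of about 10%, and messenger RNA was sequenced as 1 library per mouse. The tumor line is a single transplanted line, and the sex of the mice was not given in the sources used here.

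VEGF-A is released by muscle fibres and other cells and acts on capillary endothelium through receptors encoded by Kdr (VEGFR2), the main signalling receptor, and Flt1 (VEGFR1), which binds the ligand tightly, signals weakly and also exists in a secreted decoy form. VEGF-B, the product of Vegfb, binds the Flt1 receptor and not the Kdr receptor. Apelin, the peptide made from Apln, signals through the G protein-coupled receptor of Aplnr, and both are prominent in growing vessels. Angiopoietin-1 from perivascular and other cells activates Tie2, the receptor encoded by Tek, and stabilises vessels. Emcn encodes endomucin, a sialomucin of capillary and venous endothelium, and Cdh5 encodes VE-cadherin, the adhesion molecule of endothelial junctions.

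The upstream 250 bases of 4 genes are printed because the pattern turns on them: the receptor pair Kdr and Flt1, of which only Kdr was called lower, and Apln and Emcn, which fell with Kdr. RefSeq promoter sequences (build GRCm38.p6) were matched by symbol for 7 of the 10 members, with 8 start sites. Each run ends at the base before the annotated start, and capitals mark matches on either strand to AGGAAG, a core recognised by ETS factors.
Kdr, chr5:75978456-75978705, minus strand: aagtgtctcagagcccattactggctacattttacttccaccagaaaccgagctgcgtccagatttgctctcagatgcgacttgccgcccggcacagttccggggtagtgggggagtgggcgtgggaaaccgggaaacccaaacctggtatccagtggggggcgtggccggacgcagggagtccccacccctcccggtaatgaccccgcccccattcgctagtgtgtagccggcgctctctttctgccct
Flt1, chr5:147726012-147726261, minus strand: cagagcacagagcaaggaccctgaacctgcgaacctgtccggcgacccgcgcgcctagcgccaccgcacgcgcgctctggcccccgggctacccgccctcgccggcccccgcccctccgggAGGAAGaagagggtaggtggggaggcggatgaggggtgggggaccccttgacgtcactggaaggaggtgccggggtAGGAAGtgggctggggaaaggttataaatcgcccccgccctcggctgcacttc
Apln, chrX:48034854-48035103, minus strand: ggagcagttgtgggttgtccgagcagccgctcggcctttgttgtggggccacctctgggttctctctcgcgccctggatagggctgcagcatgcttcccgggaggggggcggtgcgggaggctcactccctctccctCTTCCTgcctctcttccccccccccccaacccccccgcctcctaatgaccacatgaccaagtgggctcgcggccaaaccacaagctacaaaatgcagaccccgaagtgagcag
Emcn, chr3:137340828-137341077, plus strand: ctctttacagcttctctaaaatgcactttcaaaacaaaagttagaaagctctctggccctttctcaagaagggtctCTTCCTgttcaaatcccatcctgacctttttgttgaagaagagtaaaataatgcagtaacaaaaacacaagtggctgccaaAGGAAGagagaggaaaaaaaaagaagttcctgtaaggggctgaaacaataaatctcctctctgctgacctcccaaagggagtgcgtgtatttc
The motif AGGAAG was found in Flt1 (2 matches), Apln (1 match) and Emcn (2 matches) and in none of the other windows, and 29.5% of the 32851 promoters in the table hold it. Other forms of ETS site were not searched, so a window without AGGAAG may still hold one. ACGTG, the core of hypoxia response elements, was found among these windows only at the downstream of the 2 Vegfa starts (chr17:46025164-46025413). The window of the upstream Vegfa start (chr17:46032378-46032627) held 0 matches, and 16.6% of all promoters hold the motif. The bases after either Vegfa start were not found in the front part of its protein-coding transcripts, unlike those of the other windows. The window of the downstream start may hold coding bases of the gene, and whether the match lies in a promoter in use was not tested. TGTTTAC, a forkhead core, was in 0 of the 8 windows and in 3.2% of all promoters. Flt1, whose window held AGGAAG, did not pass the test in tumor mice and Apln and Emcn, whose windows held it too, fell. The windows of Kdr, Apln and Flt1 were rich in G and C (61.6%, 65.2% and 70.4%) and that of Emcn was not (40.8%).

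Library totals ran from 28436205 to 36139462 counts. By the quasi-likelihood test of edgeR, with Benjamini-Hochberg adjustment over the 14070 genes that passed the filter and a threshold of 0.05, 19.8% of genes changed. In tumor mice 11.0% were higher and 8.73% were lower. Control library 4 and tumor library 2 stood apart in fibre type. The log2 ratio of Myh4, the myosin of the fastest fibres, to Myh1, Myh2 and Myh7 added together stood at 6.51, 2.03, 6.00 and 4.32 in tumor libraries 1 to 4, against 2.95, 4.29, 5.60 and 0.87 in control libraries 1 to 4. The tissue label held, since Myh4 averaged 67279 counts per 1000000 (CPM, scaled by TMM factors) in tumor mice and 57309 CPM in control mice. Of the squamous epithelial markers, Krt5, Krt14, Krt6a, Krt17 and Dsg3 had 0 counts in all 8 libraries. The 2 that could be tested were both higher in tumor mice. Trp63 averaged 24.6 CPM in tumor mice and 8.17 CPM in control mice (edgeR adjusted p = 0.00484). Sfn averaged 2.12 CPM in tumor mice and 1.18 CPM in control mice, which did not pass (edgeR adjusted p = 0.132).

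Most of the ligand and receptor genes were lower in tumor muscle. Of the 10 genes, 8 fell and 0 rose, where 8.73% of all tested genes fell. The 10 genes and the lists below were chosen with earlier results of these data known, so such shares are description and not a test. The groups did not overlap in 7 of the 10, all lower in tumor mice, where 25.0% of all tested genes had groups apart in either direction and 11.5% were lower. The median log2 fold change of the 10 was -1.13, and that of all tested genes 0.00288. Flt1 and Cdh5 did not pass the test. Kdr, Apln, Aplnr and Emcn passed in every one of the alternatives that tested them (18 for Apln, 19 for the others), and Vegfa, Vegfb, Tek and Angpt1 lost their call in some. Leaving out 1 library left 4 genes called without control library 1 or tumor library 3, and 5 when any of control libraries 2 and 4 and tumor libraries 1 and 4 was left out.

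**Figure D1:**
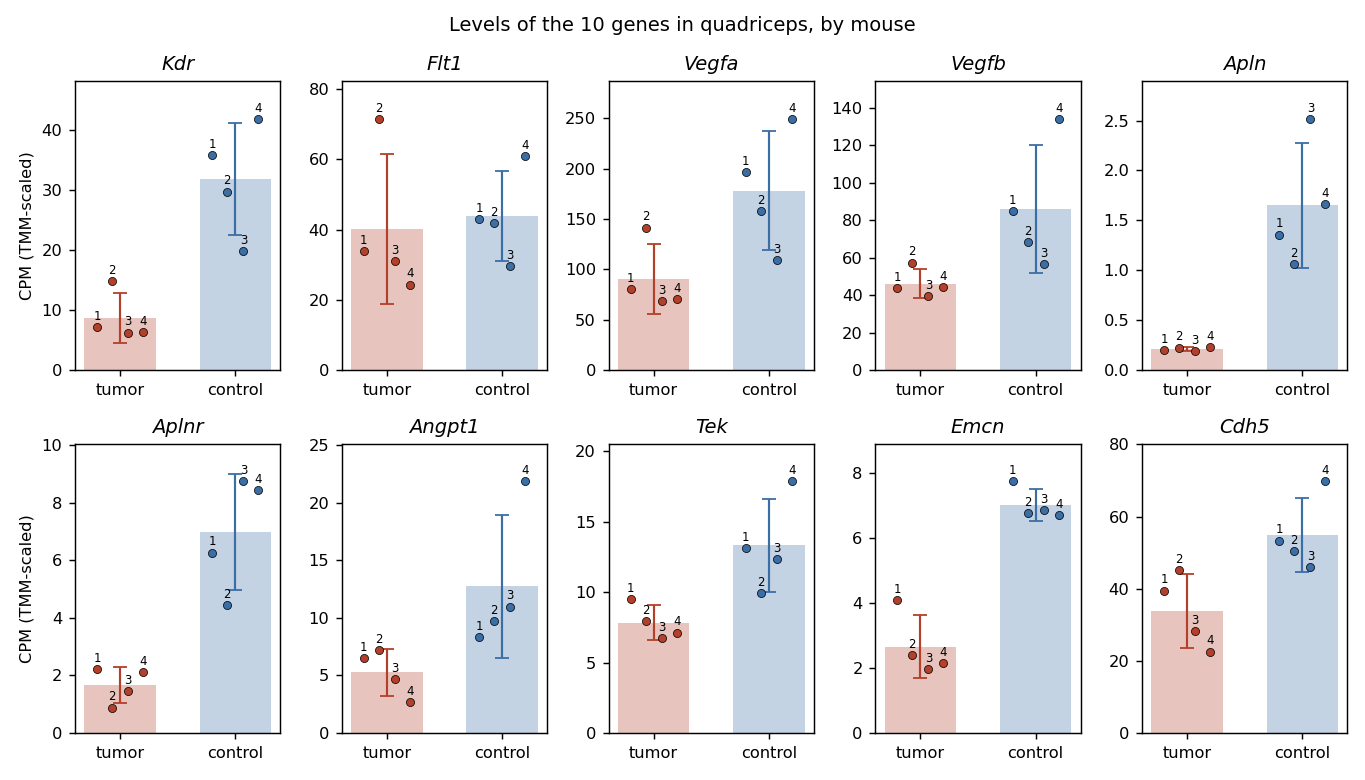
TMM-scaled counts per 1000000 (CPM, vertical axes, linear from 0) of the 10 genes in tumor and control mice, with 1 numbered point per library, bars at the group mean and error bars of 1 SD (n = 4). In 7 panels all tumor points lie below all control points, and in Flt1 tumor library 2 (71.5 CPM) is the highest of the 8.

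Kdr, the main VEGF receptor, fell 3.67-fold. It had 7.24, 14.8, 6.26 and 6.34 CPM in tumor libraries 1 to 4, against 35.8, 29.7, 19.9 and 41.9 CPM in control libraries 1 to 4. The highest tumor mouse, library 2, was below the lowest control, library 3. On the log2 scale the change was -1.88 ± 0.32 (SE, edgeR adjusted p = 0.00613), and its range over the alternatives was -2.30 to -1.60.

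Flt1, the other VEGF receptor, did not pass the test. It had 33.8, 71.5, 31.0 and 24.3 CPM in tumor libraries 1 to 4, against 42.9, 41.9, 29.6 and 60.9 CPM in control libraries 1 to 4, and the groups overlapped. Its log2 fold change was -0.13 ± 0.33 (SE, adjusted p = 0.823, edgeR), and it turned to 0.13 with the Myh4 ratio as a covariate, 0.05 without tumor library 4 and 0.0757 without control library 4.

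The difference between the receptors was tested as the ratio of their levels within each library, 1 of 4 ligand or receptor ratios computed after the values were seen. Kdr stood at 0.214, 0.207, 0.202 and 0.261 of the Flt1 CPM in tumor libraries 1 to 4, against 0.835, 0.710, 0.671 and 0.688 in control libraries 1 to 4. Tumor library 2, which had the highest Kdr and the highest Flt1 of its group, had a ratio within the narrow range of the other tumor mice. The log2 ratio averaged -2.19 ± 0.17 in tumor mice and -0.47 ± 0.14 in control mice (SD, n = 4 each), a difference of -1.72. The two-sided exact permutation p was 0.0286, the smallest that 4 against 4 allows. It was 0.114 after Benjamini-Hochberg adjustment over the 4 ratios, which did not pass. Leaving out 1 library gave differences of -1.80 to -1.65. Without control library 4 and tumor library 2 together the difference was -1.71, with an exact permutation p of 0.1, the smallest that 3 against 3 allows.

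Both VEGF ligand genes among the 10 fell less than Kdr. Vegfa had 80.9, 142, 68.8 and 70.4 CPM in tumor libraries 1 to 4, against 197, 158, 109 and 250 CPM in control libraries 1 to 4. Tumor library 2 lay above control library 3, and the other tumor mice lay below all controls. The fall was 1.97-fold (log2 change -0.98 ± 0.30, SE, edgeR adjusted p = 0.0454). Vegfb had 43.8, 57.4, 39.5 and 44.3 CPM in tumor libraries 1 to 4, against 84.9, 68.4, 56.8 and 134 CPM in control libraries 1 to 4. Here too the overlap was that of tumor library 2 with control library 3. It fell 1.86-fold (log2 fold change -0.90 ± 0.25, adjusted p = 0.0352, edgeR). Each of the 2 genes lost its call without control library 1, 2 or 4 or tumor library 1, 3 or 4 (adjusted p from 0.0804 to 0.129 for Vegfa and from 0.0510 to 0.106 for Vegfb). The log2 ratio of Vegfa to Vegfb averaged 0.91 ± 0.27 in tumor mice and 1.06 ± 0.17 in control mice (SD, n = 4 each), which did not pass (exact permutation p = 0.371 two-sided, 0.371 adjusted).

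The apelin ligand and its receptor showed the largest falls of the 10. Apln had 6, 7, 6 and 8 counts in tumor libraries 1 to 4, against 39, 32, 87 and 46 counts in control libraries 1 to 4. In scaled units that was 0.198, 0.227, 0.193 and 0.230 CPM in tumor mice, against 1.36, 1.06, 2.52 and 1.67 CPM in control mice. The tumor mice lay close together and every control was at least 1.06 CPM. Apln fell 7.67-fold (log2 change -2.94 ± 0.38, SE, edgeR adjusted p = 0.00355). At so few counts the size of the fall is imprecise, and the stricter filter on low counts removed the gene.

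Aplnr, the apelin receptor, had 2.21, 0.876, 1.45 and 2.12 CPM in tumor libraries 1 to 4, against 6.27, 4.43, 8.74 and 8.44 CPM in control libraries 1 to 4. Tumor library 2, the highest of its group for Kdr and Vegfa, was the lowest for Aplnr, and the groups did not overlap. The fall was 4.18-fold (log2 fold change -2.06 ± 0.33, SE, adjusted p = 0.00499, edgeR). The log2 ratio of Apln to Aplnr averaged -2.89 ± 0.67 in tumor mice and -2.10 ± 0.23 in control mice (SD, n = 4 each), which did not pass (two-sided exact permutation p = 0.114, adjusted p = 0.229). Without tumor library 2 the difference was -1.10, with an unadjusted two-sided exact permutation p of 0.0286.

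The angiopoietin ligand gene and its receptor gene were both lower. Angpt1, the Tie2 agonist, had 6.49, 7.17, 4.69 and 2.67 CPM in tumor libraries 1 to 4, against 8.35, 9.73, 11.0 and 21.8 CPM in control libraries 1 to 4. Control library 4 was well above the other controls, and the groups did not overlap. Its log2 fold change was -1.28 ± 0.37 (SE, adjusted p = 0.0387, edgeR), a 2.42-fold fall. The call was lost with the Myh4 ratio as a covariate (adjusted p = 0.0726) and without any library except tumor library 2, with adjusted p from 0.0502 to 0.108.

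Tek, the Tie2 receptor gene, had 9.51, 7.92, 6.75 and 7.12 CPM in tumor libraries 1 to 4, against 13.1, 9.96, 12.3 and 17.9 CPM in control libraries 1 to 4. The groups came close, at tumor library 1 and control library 2, without overlap. It fell 1.70-fold (log2 fold change -0.77 ± 0.19, SE, adjusted p = 0.0244, edgeR), and did not pass without control library 1 (adjusted p = 0.0677), without tumor library 3 (adjusted p = 0.0799), or without control library 4 and tumor library 2 together (adjusted p = 0.0521). The log2 ratio of Angpt1 to Tek averaged -0.66 ± 0.54 in tumor mice and -0.14 ± 0.39 in control mice (SD, n = 4 each), which did not pass (exact permutation p = 0.229 two-sided, 0.305 adjusted).

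The endothelial surface genes differed in size of change. Emcn had 4.08, 2.40, 1.96 and 2.15 CPM in tumor libraries 1 to 4, against 7.73, 6.75, 6.86 and 6.70 CPM in control libraries 1 to 4. The controls lay within a narrow band and every tumor mouse was below it. Emcn fell 2.65-fold (log2 change -1.40 ± 0.24, SE, edgeR adjusted p = 0.00628). Cdh5 had 39.5, 45.2, 28.3 and 22.5 CPM in tumor libraries 1 to 4, against 53.3, 50.4, 46.1 and 69.7 CPM in control libraries 1 to 4. The groups did not overlap, with tumor library 2 just under control library 3. The log2 difference, -0.70 ± 0.22 (SE), did not pass (edgeR adjusted p = 0.0542), and it did pass under 8 of the 19 alternatives, among them DESeq2 (adjusted p = 0.0189) and limma-voom (adjusted p = 0.0449).

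Levels per length were compared between the genes by dividing the CPM by the longest protein-coding transcript of each gene in GENCODE M21. Per kilobase, Vegfb and Vegfa were the highest, at 36.1 ± 6.0 and 26.2 ± 10.0 CPM in tumor mice and 67.2 ± 26.6 and 51.7 ± 17.2 CPM in control mice (SD, n = 4). These SDs are spreads between mice. The difference between the 2 genes, measured in the same libraries, was not tested. Cdh5 followed at 8.48 ± 2.58 CPM per kilobase in tumor mice and 13.7 ± 2.6 CPM per kilobase in control mice. Flt1 was next, at 5.83 ± 3.09 CPM per kilobase in tumor mice and 6.36 ± 1.87 CPM per kilobase in control mice. Kdr stood beside Flt1 in control mice, at 5.37 ± 1.58 CPM per kilobase, and below it in tumor mice, at 1.46 ± 0.70 CPM per kilobase. Tek, Angpt1 and Emcn lay between 1.02 and 1.68 CPM per kilobase in tumor mice and between 2.71 and 2.99 CPM per kilobase in control mice. Aplnr was lower (0.450 ± 0.169 CPM per kilobase in tumor mice and 1.88 ± 0.55 in control mice), and Apln was the lowest of the 10 in both groups (0.0673 ± 0.0061 CPM per kilobase in tumor mice and 0.524 ± 0.200 in control mice). Shorter transcripts of a gene would raise its value, so these levels are approximate.

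Other genes of the same families moved in part, and 1 moved the other way. Of 6 other VEGF ligands, receptors and co-receptors tested, 1 rose and 1 fell, a share of 33.3% beside 19.8% of all genes. Vegfd, a ligand of the lymphatic receptor encoded by Flt4, had 9.45, 23.9, 23.6 and 14.4 CPM in tumor libraries 1 to 4, against 2.23, 3.54, 4.83 and 3.91 CPM in control libraries 1 to 4. All tumor mice were above all controls. Vegfd rose 4.90-fold (log2 fold change 2.29 ± 0.33, SE, adjusted p = 0.00399, edgeR) and passed in all 19 alternatives. Nrp1, a VEGF co-receptor, had 10.2, 13.7, 9.86 and 8.67 CPM in tumor libraries 1 to 4, against 24.9, 22.9, 13.6 and 26.6 CPM in control libraries 1 to 4. It fell 2.07-fold (adjusted p = 0.0126, edgeR), and tumor library 2 lay at the level of control library 3. Flt4 itself, named after its value was seen, did not pass (log2 change -0.43 ± 0.36, SE, edgeR adjusted p = 0.430).

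The median log2 change of 7 further genes around angiopoietin and the Tie receptors was -0.77. Of these 7, 4 fell and 0 rose, a share of 57.1% beside 19.8% of all genes. They were Ptprb, the endothelial phosphatase that acts on Tie2 (1.81-fold, adjusted p = 0.0230), Thbd, the thrombomodulin gene (1.69-fold, adjusted p = 0.0284), the secreted angiopoietin-like gene Angptl2 (2.13-fold, adjusted p = 0.0441) and Tie1, the partner receptor of Tie2 (1.71-fold, adjusted p = 0.0459, all edgeR). Leaving out tumor library 3, or either of control libraries 1 and 2, left 0 of the 7 called by edgeR, and leaving out control library 4 left 2. The competing ligand Angpt2, named after its value was seen, did not pass (log2 change -0.71 ± 0.42, SE, edgeR adjusted p = 0.261).

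**Figure D2:**
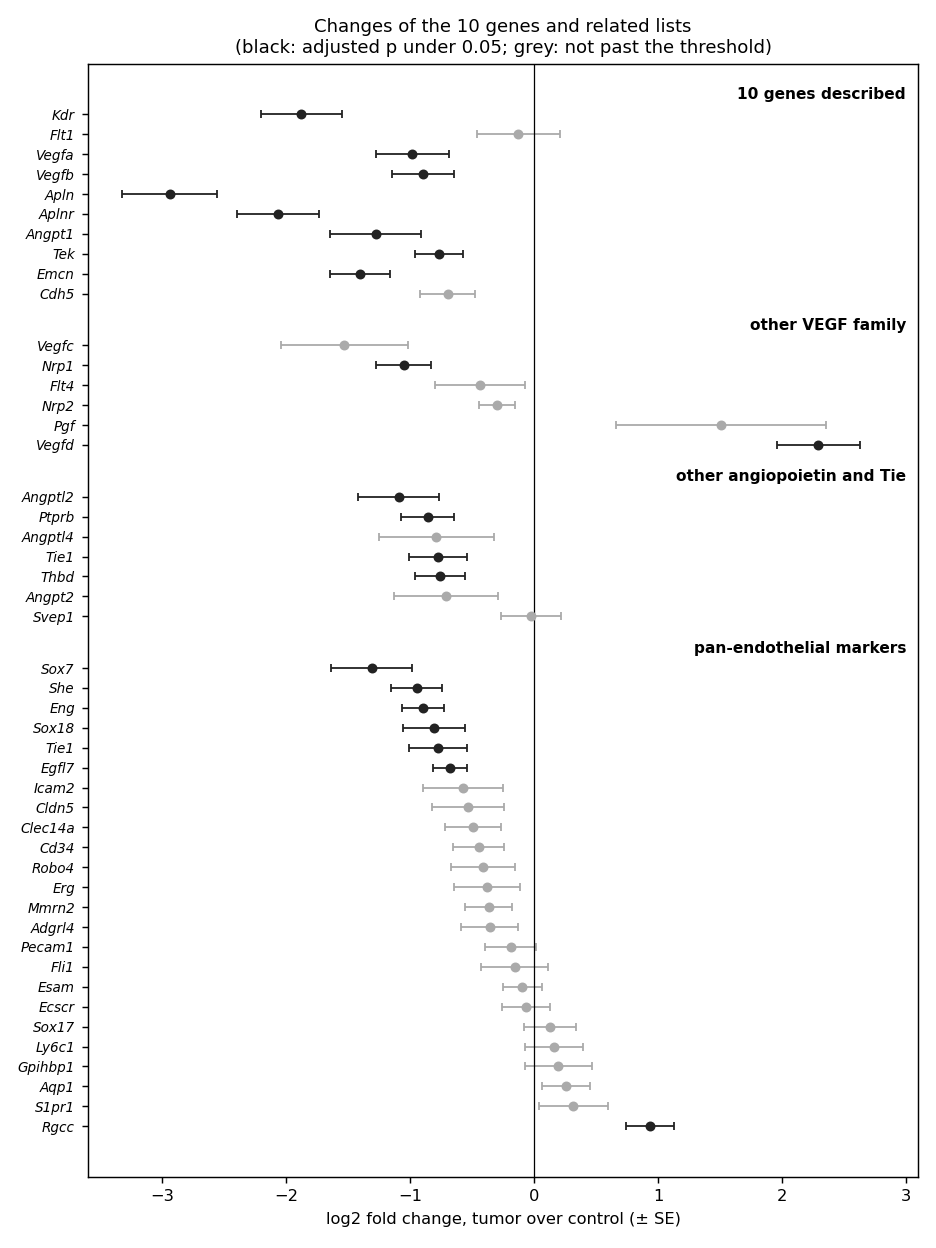
Log2 fold change, tumor over control (horizontal axis, bars of 1 SE), for the 10 genes and for the tested genes of 3 related lists, black where the adjusted p was under 0.05. Apln lies farthest to the left (-2.94) and Vegfd farthest to the right (2.29), and 18 of the 24 pan-endothelial markers lie below 0, the lowest at -1.31.

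Downstream signalling genes moved in both directions. Of 24 tested genes that act inside the cell after VEGF receptors, 3 rose and 3 fell, with a median of -0.11. The share that changed, 25.0%, was near the 19.8% of all genes. Akt1, a survival and growth kinase that muscle fibres also express, rose 3.41-fold (adjusted p = 0.00499), the adhesion adaptor gene Pxn 1.67-fold (adjusted p = 0.00519) and the phospholipase gene Plcg1 1.42-fold (adjusted p = 0.0101, all edgeR). Cav1, which forms the caveolae abundant in endothelium, fell 1.78-fold (adjusted p = 0.0103, edgeR). Of 21 tested hypoxia and VEGF regulators 3 rose and 2 fell, a share of 23.8% beside 19.8% of all genes. Their count of 5 was 2 without tumor library 3 or control library 1 and 3 without control library 2. Among them Esrra, a nuclear receptor that raises Vegfa in muscle, fell 2.37-fold (adjusted p = 0.00358) and Arnt, the partner of the hypoxia-inducible factors, rose 1.89-fold (adjusted p = 0.00918, both edgeR). Hif1a, named after its value was seen, did not pass (log2 change 0.07 ± 0.14, SE, edgeR adjusted p = 0.753). Of 19 tested genes of Notch signalling and of tip and stalk cells, 6 fell and 1 rose, with a median of -0.50. That was a share of 36.8% beside 19.8% of all genes. Heyl, a Notch target of vascular cells, fell 2.23-fold (adjusted p = 0.00869, edgeR), and Rbpj, the DNA-binding partner of Notch, rose 1.41-fold (adjusted p = 0.0238, edgeR). The Notch count of 7 was 1 without tumor library 3 or control library 1. With tumor library 2 or control libraries 2, 3 or 4 left out in turn it was 2 to 4, and it was 3 with tumor library 2 and control library 4 both left out.

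General endothelial markers moved in part. Of 24 pan-endothelial markers, a list that holds none of the 10 genes, 6 fell and 1 rose, where 8.73% of all tested genes fell and 11.0% rose, and the median log2 change of the 24 was -0.37. The receptor gene Eng (endoglin) fell 1.86-fold (adjusted p = 0.00895), the secreted factor gene Egfl7 1.60-fold (adjusted p = 0.0110) and the adaptor gene She 1.93-fold (adjusted p = 0.0139), and the cell cycle regulator gene Rgcc rose 1.91-fold (adjusted p = 0.0114, all edgeR). Pecam1, named after its value was seen, averaged 32.0 ± 7.1 CPM in tumor mice and 36.5 ± 8.4 CPM in control mice (SD, n = 4) and did not pass (adjusted p = 0.547, edgeR). The mean log2 CPM of the 24 markers was 3.33, 3.31, 3.12 and 2.74 in tumor libraries 1 to 4, against 3.42, 3.35, 3.27 and 3.73 in control libraries 1 to 4. The group means were 3.13 ± 0.27 in tumor mice and 3.44 ± 0.20 in control mice (SD, n = 4 each), a difference of -0.32 that did not pass (two-sided exact permutation p = 0.114). In bulk muscle, fewer endothelial cells and less RNA per endothelial cell cannot be told apart.

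Each gene was therefore also set against that marker mean in the same library. Kdr lay at -0.47, 0.59, -0.46 and -0.06 on this log2 scale in tumor libraries 1 to 4, against 1.74, 1.55, 1.04 and 1.66 in control libraries 1 to 4. Apln averaged -4.99 ± 0.33 in tumor mice and -2.74 ± 0.57 in control mice, Aplnr -2.42 ± 0.75 in tumor mice and -0.68 ± 0.43 in control mice, and Emcn -1.75 ± 0.38 in tumor mice and -0.62 ± 0.24 in control mice (SD, n = 4 each). Angpt1 and Cdh5 were also lower without overlap, so that 6 of the 10 genes were, where on the same ratio 24.6% of all tested genes had groups apart in either direction and 3.44% were lower. The groups overlapped for Vegfa, Vegfb, Tek and Flt1. Angpt1 and Vegfa are also made by cells outside the endothelium, so for them the ratio is not a level per endothelial cell. For Flt1 the averages were 2.08 ± 0.52 in tumor mice and 1.96 ± 0.25 in control mice.

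**Figure D3:**
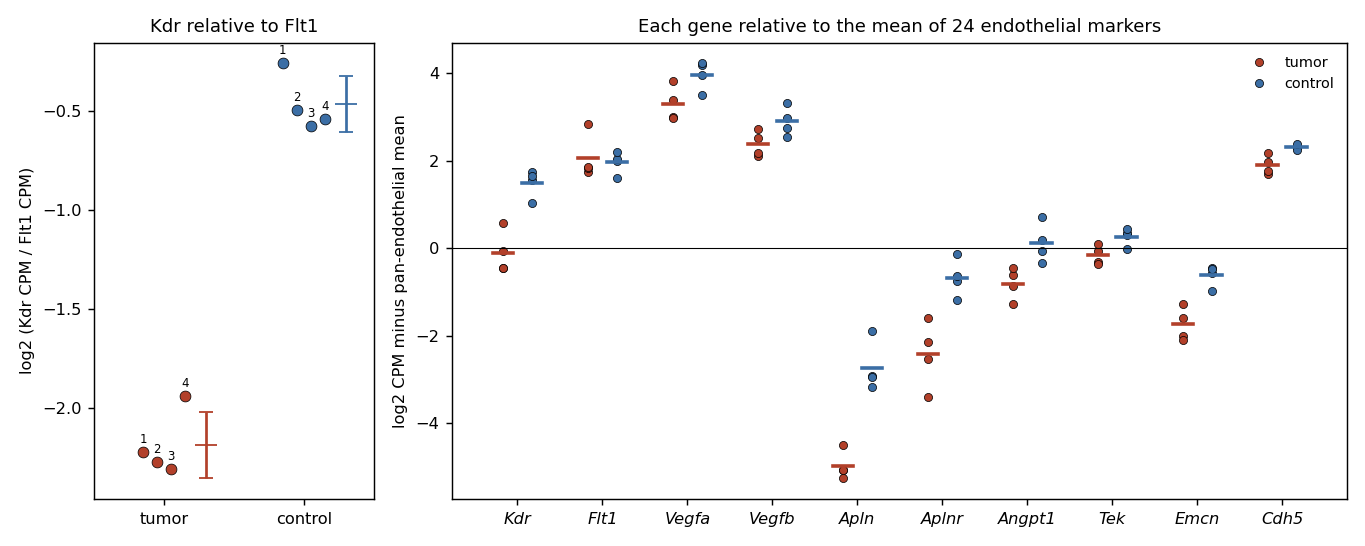
Left, log2 of the ratio of Kdr to Flt1 CPM in each numbered library with the group mean and SD (n = 4), where tumor mice average -2.19 and control mice -0.47. Right, log2 CPM of each gene minus the mean log2 CPM of 24 endothelial markers in the same library, with 1 point per mouse and a line at the group mean, where the groups are apart for Kdr, Apln, Aplnr, Angpt1, Emcn and Cdh5.

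Fibre type moved with part of the pattern. Of 10 muscle fibre markers, 3 fell and 0 rose, a share of 30.0% beside 19.8% of all genes. Myh7, the myosin of slow fibres, had 3.03, 4.09, 1.41 and 0.115 CPM in tumor libraries 1 to 4, against 119, 16.4, 1.48 and 2164 CPM in control libraries 1 to 4 (edgeR adjusted p = 0.0284). Its control values spread widely, and control library 3 lay within the tumor range. Tnnt1, the slow troponin T gene, also fell with overlapping groups (edgeR adjusted p = 0.0473), and Acta1, the skeletal muscle actin gene, fell 2.35-fold without overlap (edgeR adjusted p = 0.0368). Leaving out tumor library 3 or control library 1 left 0 of the 10 markers called by edgeR, and leaving out tumor library 4, control library 2 or control library 4 left 1. Among controls, Kdr and Vegfa were each highest in library 4, then 1, 2 and 3, the order of a rising Myh4 ratio. In tumor mice both were highest in library 2, which had the lowest ratio of its group. The other tumor libraries did not follow that order, and both genes were next highest in library 1, which had the highest ratio. Control library 4 was the highest control for 7 of the 10 genes and tumor library 2 the highest tumor library for 6. At near-equal Myh4 ratios, Kdr was 6.34 CPM in tumor library 4 (ratio 4.32) and 29.7 CPM in control library 2 (ratio 4.29). Vegfa was 70.4 CPM in tumor library 4 and 158 CPM in control library 2. This is 1 mouse per group, and the part of fibre type in the falls was not tested. With the Myh4 ratio as a covariate 7 of the 10 genes fell, with Angpt1 lost, and without control library 4 and tumor library 2 there were 8, with Tek lost and Cdh5 gained. Apln did not follow this order, and was highest in control library 3 (2.52 CPM), which had the highest Myh4 ratio of the controls.

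**Figure D4:**
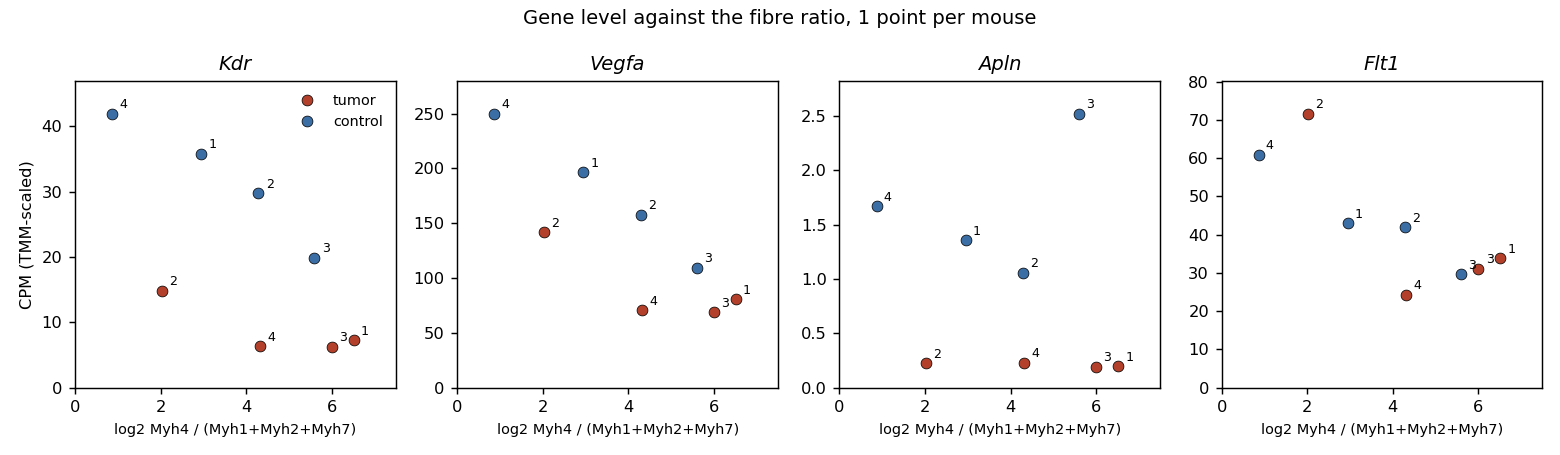
CPM (vertical axes, linear from 0) of Kdr, Vegfa, Apln and Flt1 against the log2 ratio of Myh4 to Myh1, Myh2 and Myh7 (horizontal axes), with 1 numbered point per mouse. All tumor points lie below all control points for Kdr and Apln. For Vegfa tumor library 2 lies above control library 3, and Flt1 points of the groups mix. The closest ratios are those of tumor library 4 and control library 2, and tumor libraries 1 and 3 have ratios above every control.

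Genes of other vessel and tissue cells were read beside these results, and their part in them was not tested. Of 12 mural cell markers, which mark the pericytes and smooth muscle around vessels, 4 fell and 0 rose, a share of 33.3% beside 19.8% of all genes. The 12 had a median of -0.67 and a summed level of 397 to 593 CPM in tumor mice and 449 to 640 CPM in control mice. The largest part of this sum was Abcc9, at 320 ± 40 CPM in tumor mice and 245 ± 18 CPM in control mice (SD, n = 4). Abcc9 was higher without overlap and did not pass (edgeR adjusted p = 0.0685), and the other 11 markers had log2 changes below 0. Rgs5, the next in count, did not pass (edgeR adjusted p = 0.184). The 4 that fell were Acta2 (2.38-fold), Cspg4 (2.00-fold), Notch3 (1.93-fold) and Pdgfrb (1.58-fold), and the count of 4 was 1 without control library 1 and 2 without tumor library 3. Of 17 tested junction and adhesion genes 3 fell and 1 rose, a share of 23.5% that was near the 19.8% of all genes. Heg1 (1.71-fold), Podxl (2.61-fold) and Jam2 (1.91-fold) fell and the catenin gene Jup rose 1.47-fold, and the count of 4 was 2 without tumor library 3 or control library 1. Of 13 tested venous, arterial and lymphatic markers 1 fell, the adhesion molecule gene Vcam1 (1.68-fold), a share of 7.69% near the 8.73% of all genes that fell. The summed level of this list was 57.4 to 87.3 CPM in tumor mice and 64.9 to 92.8 CPM in control mice. Vcam1 lost its call when any 1 library other than tumor library 2 was left out. Of 10 fibro-adipogenic markers 3 fell (30.0%, where 8.73% of all genes fell), among them Col15a1, a basement membrane collagen gene also made by vascular cells (5.25-fold, adjusted p = 0.00393, edgeR). Log2 changes were below 0 in 8 of the 10 and above 0 in 2, Dcn and Pdgfra. The markers with the highest counts, Gsn (log2 change -0.17, adjusted p = 0.760) and Dcn (0.04, adjusted p = 0.880), did not pass. Nor did Pdgfra (0.13, adjusted p = 0.615, all edgeR). In the macrophage list 1 of 10 genes rose, the scavenger receptor gene Cd163 (2.07-fold), a share of 10.0% near the 11.0% of all genes that rose. Of 5 adipocyte markers 0 passed by edgeR, and all 5 were lower without tumor library 2 and control library 4. Their summed level was 33.8 to 725 CPM in tumor mice and 12.5 to 819 CPM in control mice. Of 5 red blood cell and 6 Schwann cell markers 0 passed by edgeR, and 3 of the red blood cell markers were lower without tumor library 1. Summed red blood cell markers were 46.5 to 276 CPM in tumor mice and 115 to 239 CPM in control mice. Of 10 squamous epithelial markers, 2 were tested. The transcription factor gene Trp63 rose 3.01-fold, and the list summed to 17.4 to 38.4 CPM in tumor mice and 7.62 to 10.7 CPM in control mice. Trp63 alone made up most of that sum, at 15.7 to 36.2 CPM in tumor mice and 6.27 to 9.40 CPM in control mice.

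The genes with the most similar pattern over the 8 libraries were found by the root mean square difference of log2 CPM, each gene centred on its mean. Among 7313 genes the closest to Kdr were the complement inhibitor gene Cd59a (0.30), Evc (0.31), the ketone-using enzyme gene Oxct1 (0.31), the muscle regulator gene Perm1 (0.32) and Rcan2 (0.33), where the median over these genes was 1.13. The closest to Vegfa were the adenosine kinase gene Adk (0.10), the complex I subunit gene Ndufv1 (0.14), Oxnad1 (0.15), the acyl-CoA dehydrogenase gene Acads (0.16) and Pgm5 (0.16), where the median was 0.73. Within the 10 genes, Vegfa and Vegfb were each other's nearest (0.21), as were Tek and Cdh5 (0.24) and Apln and Aplnr (0.48), and Flt1 was the farthest from Kdr, Apln, Aplnr and Emcn.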

How the data were processed

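Quadriceps RNA of 4 tumor and 4 control mice was sequenced as 1 library per mouse, and groups were taken from the sample labels. Per the labels' protocols, RNeasy Mini columns gave the RNA and libraries came from the NuQuant form of Universal Plus mRNA-Seq. The authors deposited estimated counts for 53819 gene symbols. The build was GRCm39, and Salmon 1.10.1, STAR 2.7.9a, Trim Galore 0.6.7, cutadapt 3.4 and R 4.2.2 are listed, per the submitters' processing notes. Tool roles, annotation and strand setting: not given in the sources used here. Estimated counts share multi-mapping reads by likelihood, and antisense reads could enter a gene.

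Counts were rounded and filtered by filterByExpr (minimum count 10), which left 14070 genes. They were scaled by TMM and tested with the edgeR 4.0.16 quasi-likelihood test (R 4.3.3), two-sided, tumor over control, with Benjamini-Hochberg adjustment over all genes at a threshold of 0.05. Each SE was taken from the edgeR F statistic, as absolute log2 change over its square root. Log2 CPM used a prior count of 2. Single values per library were tested by exact permutation. Alternatives covered scaling, filters, left-out libraries, a replicate block, a fibre covariate, DESeq2 1.42.0 and limma-voom (limma 3.58.1).

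All 10 members were named. From each related list up to 4 changed genes with the smallest p were named, others as stated. The members and lists were chosen with earlier results of these data known.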

Additional observations from a re-analysis of the deposited data

Results flagged for a closer look

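Chance marks about 1 in 20 groups of 4 by a gap of this size, and 3 of the 30 groups examined were marked. Kdr in tumor library 2 (14.8 CPM) lay far above the next tumor library (7.24 CPM) and still below all controls. Vegfa in tumor library 2 (142 CPM) lay far above the next tumor library (80.9 CPM) and above control library 3. Tumor library 2 also had the lowest Myh4 ratio of its group, and the part of fibre type in these values was not tested. Emcn in control library 1 (7.73 CPM) lay above the other controls, whose highest was 6.86 CPM.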

How the results depend on the processing

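Kdr, Apln, Aplnr and Emcn kept their direction and their call in all alternatives that tested them, with log2 fold changes of -2.30 to -1.60 for Kdr, -3.10 to -2.66 for Apln, -2.23 to -1.75 for Aplnr and -1.69 to -1.28 for Emcn. Of the 10 members, 8 were called, and the number was 5 with the replicate block and 4 to 9 with 1 library left out. Whether the replicate number pairs the mice was not settled. Same-numbered libraries deviated together with correlations of 0.03, 0.13, 0.20 and 0.02, and tumor libraries 2 and 3 alone correlated best with their own number. With so few mice this check cannot exclude a pairing. With the block, Vegfa (adjusted p = 0.0567), Vegfb (adjusted p = 0.0542) and Angpt1 (adjusted p = 0.106) were not called. Over all genes 2781 were called, 4982 by limma-voom with quality weights, 1932 with the replicate block and 1110 to 2845 with 1 library left out. Of the 24 pan-endothelial markers 7 were called, 4 with the replicate block and 3 to 7 with 1 library left out. The pan-endothelial mean difference of -0.32 was -0.41 to -0.20 with 1 library left out and did not pass in any alternative run. Upper-quartile scaling moved the higher share of calls to 43.0%, against 55.8%, and called 9 of the 10 members lower. Flt1 changed sign with the Myh4 ratio as a covariate (0.13), without tumor library 4 (0.05) and without control library 4 (0.0757), and spanned -0.594 to 0.0757 with 1 library left out. Its ratio to the pan-endothelial mean, a difference of 0.11, was -0.0697 without control library 4 and tumor library 2, -0.147 without tumor library 2 and -0.00414 without control library 3, and spanned -0.147 to 0.221 with 1 library left out. Ratios within a library, the named-gene alternatives and the joint removal for the marker mean were chosen after seeing the data. Apln rests on 6 to 8 counts in each tumor library.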
